A study of Mus musculus with 18 samples.

Results

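Imprinted genes were examined in 4 RNA-seq comparisons at postnatal day 0. The set holds 40 genes of 17 imprinted clusters on 10 mouse autosomes. A gene was read from the entry that carries its name, alone or joined to other names by commas, and from the entry with the highest mean where there were several. All 40 were found in each table, among 23138 named genes for hippocampi, 23398 for neurospheres and 54429 each for cortices and Rnf2 hippocampi. By general knowledge, 21 are expressed from the paternal allele, 16 from the maternal allele, and 3 (Grb10, Ddc and Gnas) from an allele that varies with tissue or transcript.

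Imprinted genes are transcribed mainly from the copy inherited from one parent. The choice is set by DNA methylation laid down in the germ line at an imprinting control region, which the zinc finger protein ZFP57 and the maintenance methyltransferase DNMT1 preserve after fertilization. Several clusters also carry a long noncoding RNA (Airn, Kcnq1ot1, H19, Meg3) that is read from one parental copy, and Polycomb complexes take part in silencing the neighbors of some of them. In brain, imprinted genes regulate growth, progenitor divisions, axons and synapses. Levels measured by these libraries are the sum of both alleles, so that a change could not be assigned to either parental copy.

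In the first 3 comparisons, Kdm2bEmx1-delta-CxxC (cKO) libraries were set beside controls labelled Kdm2bfl/+ or Kdm2bfl/fl, which the labels do not separate. Emx1-Cre recombines in progenitors of the dorsal telencephalon and their descendants, and removes exon 13, which encodes the CxxC zinc finger that binds unmethylated CpG DNA, while the rest of the Kdm2b RNA is retained. Interneurons, vessels, meninges, microglia and blood in the dissected tissue do not descend from Emx1 progenitors. Hippocampi gave 3 control and 3 cKO libraries, cortices gave 2 and 2, and neurospheres, which are floating cultures of neural progenitors grown from hippocampi at the same age with FGF2 and EGF, gave 2 and 2. The last comparison set 2 Rnf2Emx1-cKO hippocampi, deleted for the E3 ligase that PRC1 complexes share, beside 2 controls labelled Rnf2fl/+ or Rnf2fl/fl. Nothing states whether libraries came from single or pooled animals, and p values measure the spread between libraries only.

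Levels are in FPKM, the fragments on a gene divided by its length and by the mapped fragments of the library, differences are given on the log2(FPKM + 1) scale, which understates changes of low genes, and errors are SD for levels and SE for differences. Calls, higher or lower, needed a difference over 0.4 in size and an unadjusted p under 0.05 in limma, and Benjamini-Hochberg adjusted p values, taken over each whole table, are given beside them. Reads per library, recovered from the values, numbered 18480515 to 21905224 for cortices and 14654894 to 16334420 for Rnf2 hippocampi, and the FPKM of the other tables do not give the reads of each library. Kdm2b RNA over the whole gene was 29.4 ± 2.15 FPKM in control and 27.2 ± 0.992 FPKM in cKO hippocampi (n = 3 each), and a whole-gene value does not check the loss of exon 13. Rnf2 RNA was 31.5 ± 1.02 FPKM in control and 28.1 ± 0.494 FPKM in Rnf2 cKO hippocampi (n = 2 each), a difference that did not pass (limma, adjusted p = 0.762), so the RNA does not check the Rnf2 label either. Neurosphere control 1 stood apart, since 29.3% of its FPKM fell on entries without a gene name against 0.876% to 1.95% in the other neurosphere libraries. Sexes were not balanced, as Xist, which marks female cells, was 0.0490 ± 0.0302 FPKM in control and 51.3 ± 88.8 FPKM in cKO hippocampi. The sum of 5 sex markers was 47.48 and 189 FPKM in control cortices and 132.5 and 164.1 FPKM in cKO cortices. In neurospheres it was 175.2 and 173.3 FPKM in controls and 71.89 and 140 FPKM in cKO. The neurosphere groups did not overlap in this sum, while limma called 0 of the 5 markers. The sum alone does not tell the sex of a library, and the part of sex in the differences was not tested. In Rnf2 hippocampi 4 of these 5 were listed at 0 in every library. All 5 hippocampal and 5 cortical identity markers were above the filter in the 3 tissue tables, which does not separate the tissues. Hippocampal markers summed to 366.3 to 409 FPKM in control Kdm2b hippocampi and 574.6 to 637.8 FPKM in control cortices. Cortical markers summed to 82.93 to 90.32 FPKM and 223.4 to 247.8 FPKM. The hippocampal list holds Neurod6, which is also in the neuron list. These sums come from separately normalized tables and were not tested against each other, so they do not check the tissue labels.

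Promoter windows show how differently these genes start, and windows of 5 genes that were called higher are printed. Where a gene had several windows, the one with the most CpG is shown. Other windows held 9 CpG for Grb10, 15 for Zdbf2, and 8 and 17 for Mest. Windows of 300 bases (250 before and 50 after a RefSeq transcript start, GRCm38.p6) were matched for 31 of the 40 genes. CpG, the dinucleotide whose unmethylated form the CxxC finger binds, is in capitals, and each run reads 5′ to 3′ on the strand of the gene. The Grb10 window lies at chr11:12037371-12037670 on the minus strand and holds 45 CpG. The Zdbf2 window at chr1:63273019-63273318 (plus) holds 38, the Mest window at chr6:30737800-30738099 (plus) holds 17, and the Ndn window at chr7:62348027-62348326 (plus) holds 11. The Rian window at chr12:109603695-109603994 (plus) holds 0.

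Grb10: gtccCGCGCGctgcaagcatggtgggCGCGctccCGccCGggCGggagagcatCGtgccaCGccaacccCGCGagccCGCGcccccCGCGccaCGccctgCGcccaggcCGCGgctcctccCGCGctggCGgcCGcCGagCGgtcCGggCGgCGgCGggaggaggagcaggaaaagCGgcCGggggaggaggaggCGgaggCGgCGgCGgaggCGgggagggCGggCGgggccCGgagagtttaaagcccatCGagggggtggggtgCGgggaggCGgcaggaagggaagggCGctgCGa
Zdbf2: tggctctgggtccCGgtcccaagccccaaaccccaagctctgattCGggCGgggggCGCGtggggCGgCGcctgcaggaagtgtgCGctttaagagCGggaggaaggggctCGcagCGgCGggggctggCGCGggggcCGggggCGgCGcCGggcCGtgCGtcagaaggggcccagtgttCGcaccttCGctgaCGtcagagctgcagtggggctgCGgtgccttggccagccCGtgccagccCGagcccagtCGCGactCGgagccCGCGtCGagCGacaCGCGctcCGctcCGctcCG
Mest: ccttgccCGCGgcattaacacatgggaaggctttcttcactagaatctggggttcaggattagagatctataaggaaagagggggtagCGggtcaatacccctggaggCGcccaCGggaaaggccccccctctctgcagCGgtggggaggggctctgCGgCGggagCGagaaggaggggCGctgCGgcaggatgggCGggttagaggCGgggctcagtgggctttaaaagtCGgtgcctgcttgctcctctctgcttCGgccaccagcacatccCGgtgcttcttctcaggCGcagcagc
Ndn: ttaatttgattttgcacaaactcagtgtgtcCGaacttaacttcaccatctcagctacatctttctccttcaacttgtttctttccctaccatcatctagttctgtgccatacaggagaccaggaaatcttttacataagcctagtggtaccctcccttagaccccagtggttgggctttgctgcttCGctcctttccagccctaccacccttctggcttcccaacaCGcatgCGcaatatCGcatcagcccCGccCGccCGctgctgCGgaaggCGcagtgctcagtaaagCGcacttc
Rian: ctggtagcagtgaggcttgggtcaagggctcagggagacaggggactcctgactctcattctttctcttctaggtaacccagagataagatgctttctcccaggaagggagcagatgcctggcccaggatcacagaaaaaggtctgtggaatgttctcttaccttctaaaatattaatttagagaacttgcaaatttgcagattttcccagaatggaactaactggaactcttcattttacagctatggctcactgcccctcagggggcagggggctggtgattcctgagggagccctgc

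All 32851 windows of the RefSeq table had a median of 7 CpG, and 34.6% of them held 15 or more. Taking the richest window of each gene, the 31 matched imprinted genes had a median of 17, and 17 of them held 15 or more. The 11 matched genes that were called in at least 1 comparison had a median of 20 and the 20 that were not called a median of 13. The hexamer TGCCGC, the core that ZFP57 binds when its CpG is methylated, was searched on both strands and occurred in a window of 11 of the 31 genes, while 11.6% of all windows held it. These counts describe letters, the number of windows per gene differs, and neither methylation nor binding was measured here.

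Most of the 40 genes were expressed in hippocampus. The filter of a mean of at least 0.5 FPKM kept 37 genes in Kdm2b hippocampi, 26 in neurospheres, 33 in cortices and 33 in Rnf2 hippocampi. In control hippocampi the highest levels were those of Nnat (1066 ± 46.6 FPKM), a small membrane protein of developing neurons, Gnas (596 FPKM), the stimulatory G protein alpha subunit locus, Meg3 (296 ± 25.8 FPKM) and Ndn (241 ± 61.0 FPKM), a MAGE protein that promotes neuronal survival (n = 3). Phlda2, a placental growth regulator, and Rtl1, a retrotransposon-derived gene of placenta, were under the filter in every table. Asb4 was tested only in Rnf2 hippocampi, and Ddc (dopa decarboxylase), Slc22a3 (a monoamine transporter) and Kcnq1ot1 only in Kdm2b hippocampi. Kcnq1ot1, listed with a length of 93092 bases, held 659 to 960 reads in cortices and 335 to 530 in Rnf2 hippocampi. It was left out there by the FPKM filter and not for want of reads.

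Fewer of these genes were expressed in neurospheres, and the 26 that passed the filter there all passed it in Kdm2b hippocampi. Meg3 was 5.30 FPKM in their control libraries, Rian 2.33 FPKM and Mirg 0.0246 FPKM, whereas control hippocampi held 143 FPKM of Rian and 5.22 FPKM of Mirg. The imprinted growth factor Igf2 was 0.0660 FPKM in control neurospheres and 34.4 FPKM in control hippocampi, and H19 was 0.220 and 7.45 FPKM. Kcnk9 and Magel2 were listed at 0 in all 4 neurosphere libraries. Mest, an alpha/beta-hydrolase family gene of mesoderm and progenitors, and Nap1l5, a nucleosome assembly protein family gene, stood higher in control neurospheres (122 and 109 FPKM) than in control hippocampi (21.4 and 21.5 FPKM). The tables were normalized separately, so these levels stand side by side without a test.

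**Figure D1:**
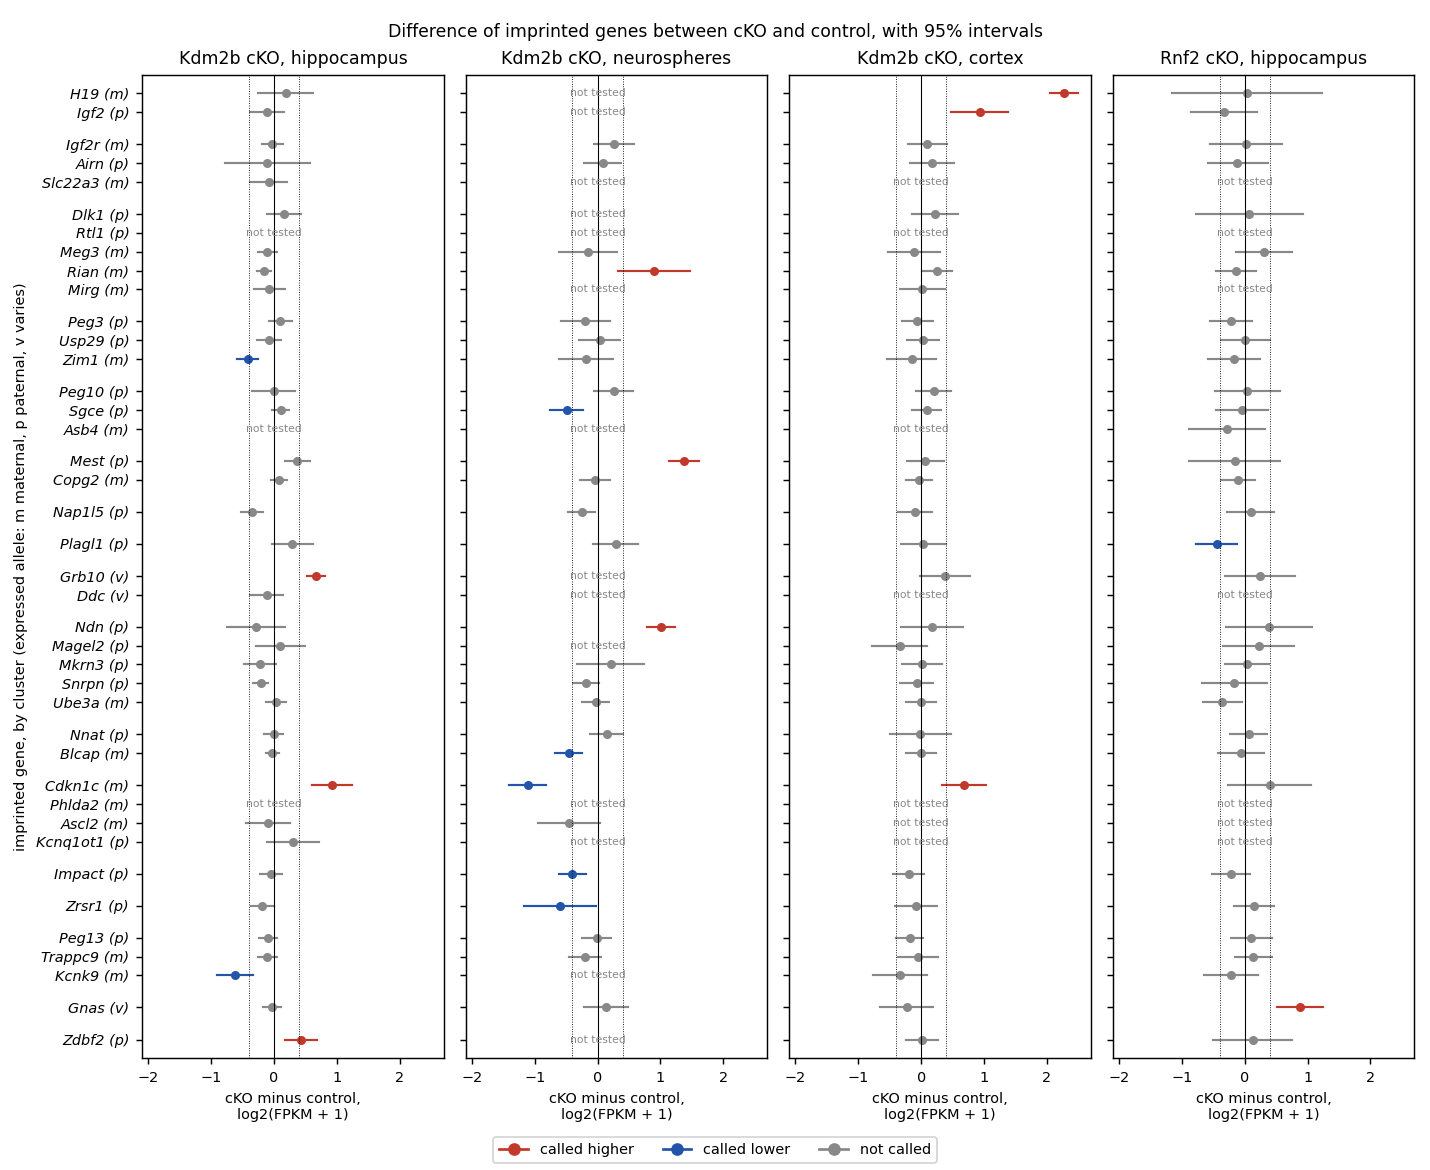
Differences between cKO and control libraries for the 40 imprinted genes, ordered by cluster, in the 4 comparisons. Points are limma estimates on the log2(FPKM + 1) scale, bars are 95% intervals, dotted lines mark 0.4 in size, and letters give the expressed allele. Estimates span -0.62 to 0.92 in Kdm2b hippocampi, -1.11 to 1.37 in neurospheres, -0.34 to 2.27 in cortices and -0.45 to 0.88 in Rnf2 hippocampi, and only Cdkn1c is called in more than 1 panel.

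Data of Kdm2b cKO hippocampi showed 3 imprinted genes called higher (Cdkn1c, Grb10 and Zdbf2) and 2 called lower (Kcnk9 and Zim1) out of 37 tested. That is 13.5%, where 6.14% of all 13446 genes tested were called, 3.89% higher and 2.25% lower. All 5 also had an adjusted p under 0.05, a rule that 4.41% of all genes met. The 5 genes come from 5 clusters, and no cluster had a second member called. The median difference of the 37 genes was -0.05, beside 0.01 over all genes, with 13 positive and 24 negative estimates. Groups did not overlap for 11 of the 37, and for 29.2% of all genes.

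Cdkn1c (ENSMUSG00000037664, chr7:143458339-143461050, minus strand, GRCm38) encodes the CDK inhibitor p57KIP2, which takes cells out of the cycle and is read from the maternal copy. It stood at 15.7, 10.5 and 15.8 FPKM in control hippocampi and at 30.3, 26.4 and 24.2 FPKM in cKO hippocampi. Every cKO library lay above every control. Mean levels were 14.0 ± 3.0 and 27.0 ± 3.06 FPKM (n = 3 each), 1.93 times as high in cKO, and the difference was 0.92 ± 0.14 (limma, adjusted p = 0.00736).

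Grb10 (ENSMUSG00000020176, chr11:11930508-12038683, minus strand), an adaptor that restrains insulin and IGF receptor signaling, has the CpG-rich window printed above. Controls gave 10.5, 10.2 and 11.1 FPKM, and cKO hippocampi gave 17.1, 18.1 and 17.0 FPKM. The 2 groups were tight and far apart. The means were 10.6 ± 0.468 and 17.4 ± 0.603 FPKM, a difference of 0.67 ± 0.06 (limma, adjusted p = 0.00108). Grb10 is read from the maternal copy in most tissues and from the paternal copy in neurons, and these libraries do not tell which promoter gave the added RNA. Ddc, its neighbor, was 0.902 FPKM in control and 0.748 FPKM in cKO hippocampi and did not pass.

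Zdbf2 (ENSMUSG00000027520, chr1:63273265-63314576, plus strand), a paternally expressed zinc finger gene whose brain expression affects growth of the pup, stood at 2.15, 2.14 and 2.35 FPKM in controls and at 3.0, 3.98 and 3.11 FPKM in cKO hippocampi. The groups did not overlap, and cKO library 2 was the highest. The difference was 0.43 ± 0.11 (limma, adjusted p = 0.0477), and without cKO library 2 it was 0.33, under the size needed for a call.

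Kcnk9 (ENSMUSG00000036760, chr15:72501089-72546340, minus strand) encodes the potassium leak channel TASK3 and is read from the maternal copy in brain. Its controls stood at 5.59, 4.69 and 5.55 FPKM and its cKO libraries at 3.81, 2.94 and 2.55 FPKM. All cKO libraries were lower than all controls, and the gene fell by 0.62 ± 0.13 on the log2 scale (limma, adjusted p = 0.0199). Of its neighbors, the noncoding RNA Peg13 had a difference of -0.10 and Trappc9, a vesicle trafficking gene, of -0.11, and neither passed.

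Zim1 (ENSMUSG00000002266, chr7:6671269-6696450, minus strand), a maternally expressed zinc finger gene, was 8.01, 7.99 and 7.80 FPKM in controls and 5.76, 5.93 and 5.33 FPKM in cKO hippocampi. The groups were clearly apart, and Zim1 fell by 0.42 ± 0.08 (limma, adjusted p = 0.0129). Without cKO library 3 the difference was -0.38. Peg3 and Usp29, the paternally expressed zinc finger and deubiquitinase genes of the same cluster, had differences of 0.10 and -0.08 and did not pass.

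Mest, Nap1l5 and Snrpn had adjusted p values under 0.05 at differences below 0.4 in size. Mest was 23.9, 19.1 and 21.2 FPKM in controls and 28.1, 30.1 and 25.6 FPKM in cKO hippocampi, a difference of 0.37 ± 0.09 (limma, adjusted p = 0.0344). Nap1l5 was 21.5 ± 0.780 and 16.8 ± 1.83 FPKM (-0.35, limma, adjusted p = 0.0282). Snrpn, which encodes a splicing protein and shares its entry with Snurf, was 173 ± 1.5 and 149 ± 8.61 FPKM (-0.22, limma, adjusted p = 0.0383). Without control library 1, whose Mest and Plagl1 levels were the highest of the controls, the genes called higher numbered 5 and included Mest and Plagl1.

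The remaining hippocampal genes did not pass, and their largest estimates were those of Kcnq1ot1 (0.30), Plagl1 (0.29), Ndn (-0.28), Mkrn3 (-0.22) and Zrsr1 (-0.18). Of the Dlk1-Meg3 cluster, the 3 maternally expressed noncoding RNAs Meg3, Rian and Mirg had differences of -0.11, -0.16 and -0.07, and Dlk1, a Notch-related membrane protein, of 0.15. The Igf2r, Airn and Slc22a3 estimates were -0.03, -0.11 and -0.09, and those of the H19 RNA and Igf2 were 0.18 and -0.12. Nnat and Blcap, which share a locus on opposite strands, had estimates of -0.01 and -0.03. Paternally expressed genes had a median of -0.03 (20 tested) and maternally expressed genes a median of -0.08 (14 tested).

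Markers of other cells were measured beside these values. Of 6 microglia markers 3 were called higher in cKO hippocampi, with summed levels of 42.3 to 49.4 FPKM in controls and 54.5 to 71.3 FPKM in cKO. Of 7 choroid plexus markers 4 were tested and 3 called higher, 1 of these with a group mean under 0.5 FPKM. By adjusted p limma called 0 of them. Their sum ranged from 5.87 to 17.4 FPKM in controls and from 8.06 to 61.6 FPKM in cKO. Of 8 meninges markers limma called 0, with 0 at an unadjusted p under 0.05 (47.1 to 59.4 and 36.8 to 56.5 FPKM). Neuron markers summed to 1536 to 1630 FPKM in controls and 1200 to 1476 FPKM in cKO, with 0 of 6 called by limma and 4 at an unadjusted p under 0.05, and 3 of 6 progenitor markers were called higher (973 to 1058 and 980 to 1109 FPKM). In RNA from whole tissue, fewer cells of a type and less RNA per cell cannot be told apart, and the part of these shifts in the differences above was not tested. Further, a set of 40 other imprinted genes had 30 tested in hippocampi and 0 called by limma, with 6 of them at an unadjusted p under 0.05, among them Snurf, whose entry is that of Snrpn.

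**Figure D2:**
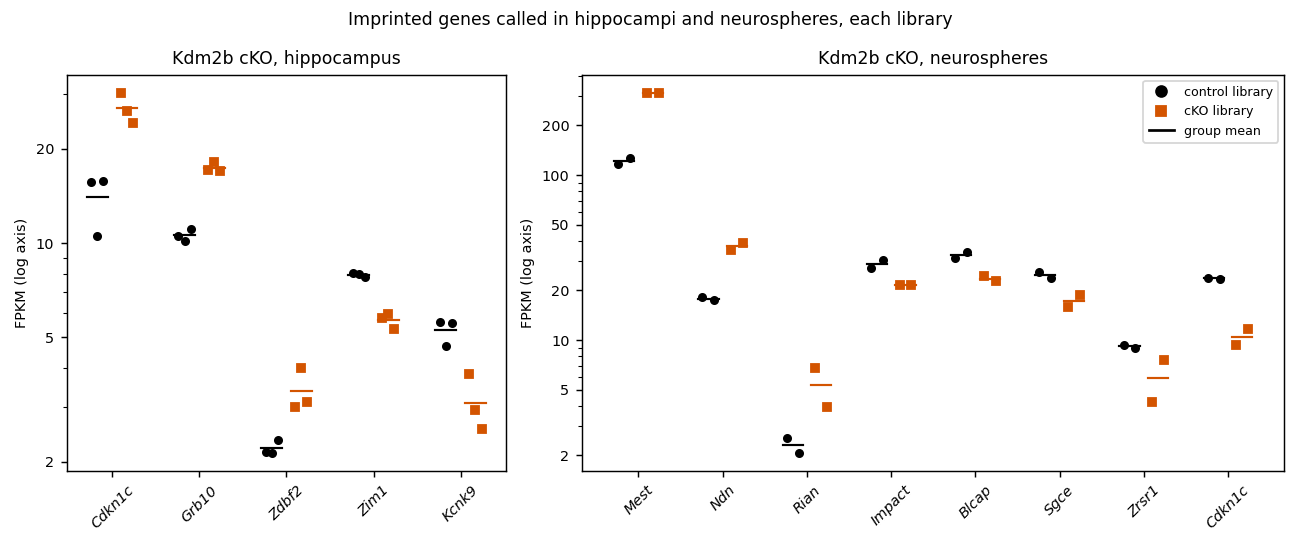
FPKM of the imprinted genes called in Kdm2b hippocampi (left) and neurospheres (right), on log axes. Each point is a library, circles are controls, squares are cKO and lines are group means. In both panels every called gene has cKO libraries all above or all below its controls, and Cdkn1c lies above in hippocampi (24.2 to 30.3 against 10.5 to 15.8 FPKM) and below in neurospheres (9.29 to 11.7 against 23.5 to 23.9 FPKM).

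In neurospheres, 3 imprinted genes were called higher in cKO (Mest, Ndn and Rian) and 5 lower (Cdkn1c, Sgce, Blcap, Impact and Zrsr1) of 26 tested. That is 30.8% beside 24.6% of all 12227 genes tested, 11.4% higher and 13.2% lower, a background under which a call is common. An adjusted p under 0.05 was reached by 3 of the higher and 4 of the lower genes, and by 19.3% of all genes with a difference over 0.4 in size. Groups did not overlap for 18 of the 26, beside 66.4% of all genes. The median difference was -0.03, and -0.01 over all genes.

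Mest (ENSMUSG00000051855, chr6:30723547-30748465, plus strand) gave 117 and 127 FPKM in controls and 316 and 315 FPKM in cKO neurospheres. The cKO level was 2.59 times as high, with means of 122 ± 7.08 and 316 ± 0.443 FPKM (n = 2 each) and a difference of 1.37 ± 0.10 (limma, adjusted p = 0.00154). Copg2, a coat protein gene that overlaps Mest by 912 bases on the opposite strand, was 21.3 and 20.8 FPKM and did not pass (-0.04).

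Ndn (ENSMUSG00000033585, chr7:62346569-62350262, plus strand) stood at 18.1 and 17.5 FPKM in controls and at 35.1 and 38.7 FPKM in cKO. The groups were well apart, and the difference was 1.01 ± 0.09 (limma, adjusted p = 0.00210). The other tested genes of its cluster did not pass, with estimates of 0.21 for Mkrn3, a ubiquitin ligase that restrains puberty, -0.18 for Snrpn and -0.03 for Ube3a, the ubiquitin ligase of Angelman syndrome, which neurons read from the maternal copy. Peg12, a paternally expressed gene of the same chromosomal domain from the list of other imprinted genes, was also called higher, at 17.0 ± 1.15 and 32.6 ± 3.98 FPKM (0.90 ± 0.11, limma, adjusted p = 0.00496).

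Rian (ENSMUSG00000097451, chr12:109603940-109661716, plus strand), a noncoding host of small nucleolar RNAs, was 2.57 and 2.08 FPKM in controls and 6.79 and 3.93 FPKM in cKO. The cKO libraries were both higher but differed from each other, and the difference was 0.90 ± 0.23 (limma, adjusted p = 0.0435). Leaving out control 2 gave 0.80 with an unadjusted limma p of 0.055, which ended the call, and leaving out cKO 1 gave 0.57. Meg3, upstream on the same strand, had an estimate of -0.16.

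Cdkn1c fell in neurospheres. Controls gave 23.9 and 23.5 FPKM and cKO cultures gave 9.29 and 11.7 FPKM, so the groups did not overlap. Means were 23.7 ± 0.259 and 10.5 ± 1.70 FPKM, and the gene fell by 1.11 ± 0.12 on the log2 scale (limma, adjusted p = 0.00334). Ascl2, a basic helix-loop-helix factor of the same cluster, was 1.01 FPKM in controls and 0.462 FPKM in cKO, which did not pass (-0.45).

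Smaller falls were found for 4 genes. Sgce (ENSMUSG00000004631, chr6:4674350-4747207, minus strand), a sarcoglycan whose loss causes myoclonus-dystonia, was 25.7 and 23.7 FPKM in controls and 15.9 and 18.7 FPKM in cKO (-0.49 ± 0.11, limma, adjusted p = 0.0255). Its neighbor Peg10, a retrotransposon-derived gene that starts 98 bases away on the opposite strand, had an estimate of 0.26. Blcap (ENSMUSG00000067787, chr2:157556362-157571274, minus strand), a small transmembrane protein gene, was 31.4 and 34.2 FPKM in controls and 24.4 and 22.7 FPKM in cKO (-0.46 ± 0.09, limma, adjusted p = 0.0178). Nnat, which overlaps Blcap, was 214 and 236 FPKM and did not pass.

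Impact (ENSMUSG00000024423), an inhibitor of the GCN2 stress kinase, was 27.5 and 30.6 FPKM in controls and 21.7 and 21.6 FPKM in cKO (-0.40 ± 0.09, limma, adjusted p = 0.0269). Zrsr1 (ENSMUSG00000044068, chr11:22972005-22976496, plus strand), a retroposed splicing factor gene, was 9.37 and 8.97 FPKM in controls and 4.24 and 7.61 FPKM in cKO (-0.60 ± 0.23, limma, adjusted p = 0.118). All 4 had both cKO values below both controls, and the 2 cKO libraries of Zrsr1 were far from each other. These calls were sensitive to scaling and to single libraries. With libraries scaled to the same FPKM total, Blcap (-0.35), Impact (-0.29), Sgce (-0.38) and Zrsr1 (-0.50) were no longer called, and only Cdkn1c stayed called lower, while the median of all genes moved by 0.105 and the share of higher genes among all calls went from 46.2% to 60.2%. Without control 1, the library that stands apart, Zrsr1 alone lost its call (-0.57), without control 2 Impact (-0.33) and Zrsr1 (-0.63) did, and without cKO 1 Sgce (-0.39) and Zrsr1 (-0.24) did. Impact also lost its call under median-ratio scaling (-0.39), and Zrsr1 without a filter on low values (unadjusted limma p of 0.0758) and in limma without a trend (unadjusted p of 0.0589). Without cKO 2, the genes called higher numbered 5 and included Peg10 and Plagl1.

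Of 30 regulators of imprints, 27 were tested in neurospheres, where 6 were called higher and 2 lower. This is 29.6%, near the 24.6% of all genes called in this table. Uhrf1, which brings DNMT1 to replicated DNA, went from 22.7 ± 0.112 to 55.7 ± 0.806 FPKM (1.26 ± 0.08, limma, adjusted p = 0.00115), and Dnmt1 went from 37.7 ± 1.18 to 72.6 ± 3.27 FPKM (0.93 ± 0.08, limma, adjusted p = 0.00212). Hells, a chromatin remodeler needed for DNA methylation, had a difference of 1.08, and Ezh2, Suz12 (PRC2 subunits) and Trim28 (the corepressor of ZFP57) of 0.61, 0.55 and 0.49. Zfp57 was 18.1 ± 3.05 FPKM in controls and 13 ± 1.06 FPKM in cKO (-0.44, limma, adjusted p = 0.0646) and Zfp445, a second imprint-binding zinc finger gene, was 44.7 ± 2.13 and 33.0 ± 0.408 FPKM (-0.42, limma, adjusted p = 0.0175). At the same FPKM total neither was called (-0.33 and -0.31). Both calls were also lost without control 2 (-0.28 and -0.38), and that of Zfp57 without cKO 1 (-0.37). Of the same 27 genes limma called 0 in each other comparison, where 3 in Kdm2b hippocampi, 2 in cortices and 0 in Rnf2 hippocampi had an unadjusted p under 0.05. Progenitor markers summed to 3704 to 4120 FPKM in controls and 5134 to 6992 FPKM in cKO neurospheres, with 2 of 6 called higher (Nes and Vim) and Hes5 called lower. Neuron markers summed to 228 to 237 and 170 to 199 FPKM, with Tubb3 and Snap25 called lower and Rbfox3 higher among 5 tested, so members of both lists went both ways. Choroid plexus markers summed to 1.0 to 1.12 FPKM in controls and 10.5 to 13 FPKM in cKO, mostly from Otx2, a homeobox gene also expressed in other brain regions (0.0415 and 9.68 FPKM, limma, adjusted p = 0.00212). Otx2 and Ttr, which was not called, passed the filter only through cKO libraries, and Folr1 was listed at 0. Of 4 tested thalamus markers 1 was called higher and 1 lower, and of 4 tested hippocampal markers 2 were called lower. Microglia markers summed to at most 1.09 FPKM in any neurosphere library. The part of the culture make-up in the differences was not tested.

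**Figure D3:**
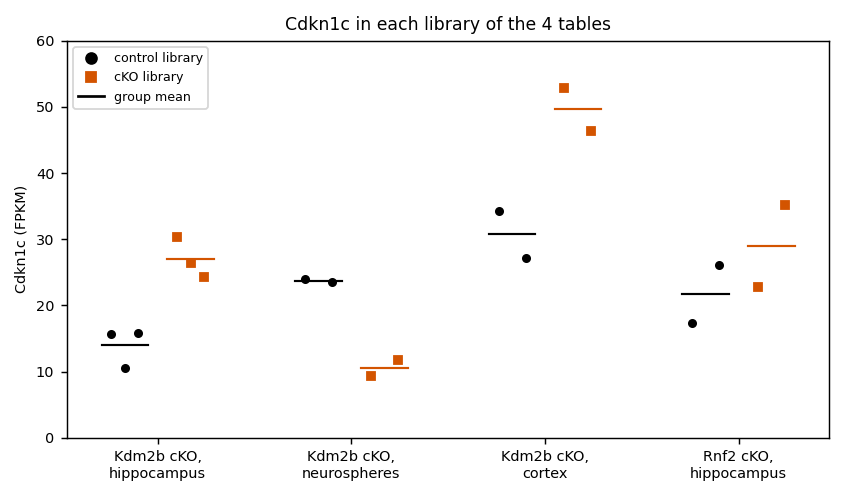
Cdkn1c in each library of the 4 tables, in FPKM, with circles for controls, squares for cKO and lines for group means. The cKO libraries lie above the controls in Kdm2b hippocampi and cortices and below them in neurospheres, and in Rnf2 hippocampi the groups overlap (17.3 and 26.0 against 22.9 and 35.2 FPKM).

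Cdkn1c was the only gene of the 40 called in more than 1 comparison, and its direction differed between them. The cKO effect in hippocampi minus that in neurospheres was 2.03 ± 0.22 in an interaction fit over both tables (limma, adjusted p = 0.000125). In cortices it was 34.3 and 27.2 FPKM in controls and 52.8 and 46.4 FPKM in cKO, from 1540 and 1178 reads and 2116 and 1770 reads. The cortical groups did not overlap, and the difference was 0.68 ± 0.14 (limma, adjusted p = 0.157). In Rnf2 hippocampi the estimate was 0.40 ± 0.27, with a 95% interval of -0.26 to 1.06, and control 2 lay above cKO 1. Within each replicate number cKO lay above control, at 22.9 against 17.3 FPKM and 35.2 against 26.0 FPKM. The numbers were not taken as pairs. The 4 tables do not share libraries.

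In Kdm2b cKO cortices, 3 imprinted genes were called higher (H19, Igf2 and Cdkn1c) and 0 lower of 33 tested by limma. This was 9.09%, beside 7.01% of all 15691 genes, 4.73% higher and 2.28% lower. Of the 3, Igf2 passed the filter only through its cKO libraries. Only H19 had an adjusted p under 0.05, as did 0.427% of all genes with a difference over 0.4. In limma-voom on recovered reads 482 genes (3.07%) met that rule, with H19, Igf2 and Cdkn1c among them. At an unadjusted p under 0.05 regardless of size there were 4 of 33, Rian (0.25) being the fourth, and limma-voom called 4 higher and 2 lower by the unadjusted rule. The median was 0.01, beside -0.01 over all genes, and groups did not overlap for 13 of the 33 and 44.8% of all genes.

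H19 (ENSMUSG00000000031, chr7:142575529-142578143, minus strand), the maternally expressed noncoding RNA that shares enhancers with Igf2, had the largest difference of any of the 40 genes in the 4 comparisons. Control cortices held 9.98 and 8.76 FPKM (541 and 458 reads) and cKO cortices 48.7 and 49.3 FPKM (2353 and 2270 reads). The groups were 5.23 times apart with little spread, at 9.37 ± 0.863 and 49.0 ± 0.452 FPKM (n = 2 each), and the difference was 2.27 ± 0.09 (limma, adjusted p = 0.00651).

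Igf2 (ENSMUSG00000048583, chr7:142650766-142666816, minus strand), the paternally expressed growth factor of the same cluster, was close to 0 in control cortices, with 0.111 and 0.132 FPKM (14 and 16 reads), and stood at 1.43 and 0.878 FPKM in cKO (161 and 94 reads). Both cKO libraries were higher, and the difference was 0.93 ± 0.18 (limma, adjusted p = 0.144). Igf2 passed the filter only through its cKO libraries, so a gene at this level had to differ to be tested. The size depends on the pseudocount at such levels, being 2.47 with a pseudocount of 0.1 and 3.19 in limma-voom on reads. Without cKO 1 the mean was below the filter and gave no value. Igf2 was 34.4 FPKM in control Kdm2b hippocampi and 0.782 FPKM in control Rnf2 hippocampi. Its level is therefore not comparable between these tables.

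All 8 markers of meninges were called higher in cKO cortices, and their sum was 2.05 to 3.16 FPKM in controls and 27.2 to 42.2 FPKM in cKO. Other markers from outside the Emx1 lineage were called as well, with 3 of 7 blood vessel markers (51.9 to 52.2 and 78.5 to 81.0 FPKM), 3 of 5 blood markers (435 to 454 and 623 to 711 FPKM) and 3 of 6 microglia markers (13.5 to 15.3 and 20.5 to 27.5 FPKM) higher. Of 6 markers of ganglionic eminence and interneurons limma called 0, with 0 at an unadjusted p under 0.05 (65.3 to 69.0 and 56.5 to 74.2 FPKM). Control means of 7 of the 8 meninges markers were under 0.5 FPKM, so that these passed the filter only through cKO libraries. By general knowledge, H19 and Igf2 are abundant in meninges and vessels. Both genes and these sums were higher in both cKO cortices. In cKO 1 and cKO 2 the meninges sum was 42.2 and 27.2 FPKM, H19 was 48.71 and 49.35 FPKM, and Igf2 was 1.43 and 0.878 FPKM. In the list of other imprinted genes 4 of 24 were called higher and 0 lower (16.7%, beside 7.01% of all genes). Of these 4, Dcn, Slc38a4 and Rasgrf1 passed the filter only through their cKO libraries, and had to differ to be tested. Dcn, a proteoglycan of fibroblasts, went from 0.373 ± 0.0990 to 5.88 ± 0.425 FPKM (2.33 ± 0.11, limma, adjusted p = 0.0114), and Slc38a4, Gatm and Rasgrf1 had differences of 0.82, 0.51 and 0.50, Rasgrf1 losing its call without control 2 (0.45) or cKO 1 (0.38). The part of meninges in the H19, Igf2 and Cdkn1c differences was not tested, since the marker sum and the genotype cannot be told apart in these 4 libraries.

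**Figure D4:**
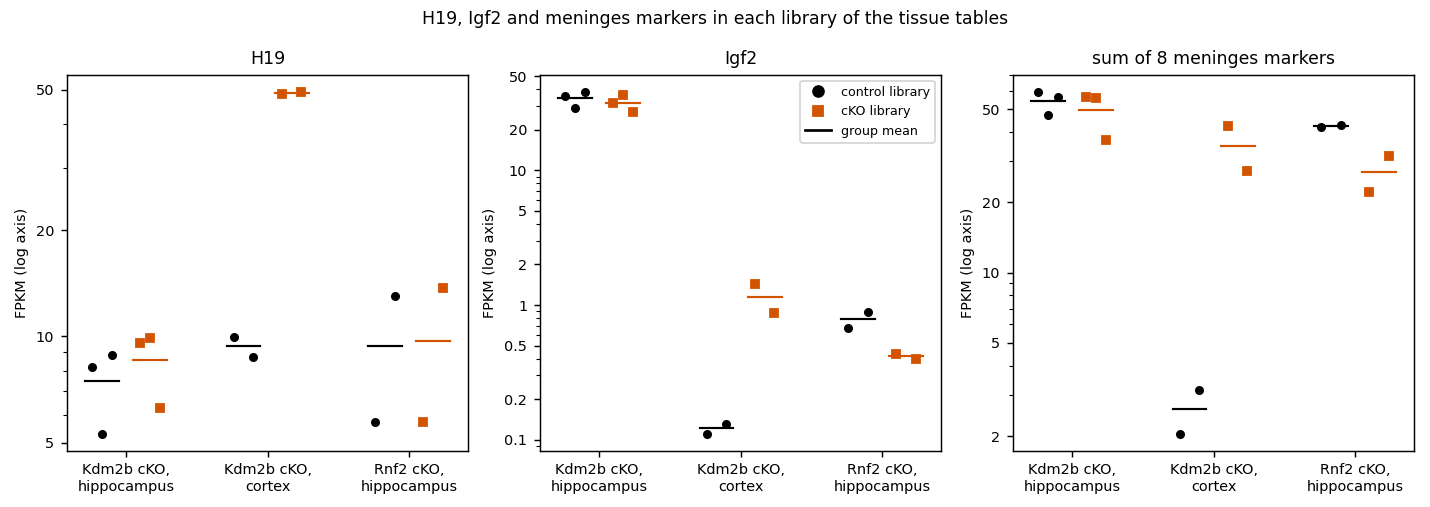
H19, Igf2 and the sum of 8 meninges markers in each library of the 3 tissue tables, in FPKM on log axes, with circles for controls, squares for cKO and lines for group means. In cortices H19 (8.76 to 9.98 against 48.7 to 49.3 FPKM), Igf2 (0.111 to 0.132 against 0.878 to 1.43 FPKM) and the marker sum (2.05 to 3.16 against 27.2 to 42.2 FPKM) are all higher in cKO, and in Rnf2 hippocampi Igf2 and the sum are both lower in cKO.

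The remaining cortical estimates were within 0.4 in size. Grb10 was 9.22 and 12.1 FPKM in controls and 15.5 and 12.7 FPKM in cKO, both cKO values above both controls, and did not pass (0.38, limma, adjusted p = 0.418). Kcnk9 was 1.1 and 0.669 FPKM in controls and 0.422 and 0.535 FPKM in cKO (-0.34), and Magel2, a MAGE gene of the Prader-Willi region, was 1.01 and 0.752 FPKM against 0.341 and 0.635 FPKM (-0.34). Neither passed in limma on FPKM, whereas limma-voom on reads called Kcnk9 and Magel2 lower and Grb10 higher. The cKO means of Kcnk9 (0.4785 FPKM) and Magel2 (0.488 FPKM) were under the filter. Both genes passed it only through their controls. Zdbf2 and Zim1, called in hippocampi, had cortical estimates of 0.01 and -0.15.

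In Rnf2 cKO hippocampi, 1 of 33 tested imprinted genes was called higher (Gnas) and 1 lower (Plagl1). This is 6.06%, beside 4.71% of all 15764 genes tested, 2.86% higher and 1.85% lower. By adjusted p limma called 0 of all genes in this table, against 742 at the unadjusted rule and 4 by limma-voom on recovered reads with adjusted p. At an unadjusted p under 0.05 there were 3 imprinted genes. The median of the imprinted genes was 0.02, and groups did not overlap for 12 of 33 beside 38.3% of all genes.

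Gnas (ENSMUSG00000027523, chr2:174284320-174346744, plus strand) was 3.18 and 3.91 FPKM in controls (532 and 680 reads) and 7.77 and 6.92 FPKM in Rnf2 cKO (1437 and 1252 reads). The cKO level was 2.07 times as high without overlap (0.88 ± 0.15, limma, adjusted p = 0.498). The same gene stood at 550 to 627 FPKM in the Kdm2b hippocampal table, so the tables do not count this locus of nested transcripts alike, and the fold refers to the reads that this table assigns to Gnas.

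Plagl1 (ENSMUSG00000019817, chr10:13060504-13131694, plus strand), a zinc finger factor of an imprinted gene network, was 11 and 11.9 FPKM in controls (1282 and 1453 reads) and 7.51 and 8.82 FPKM in cKO (970 and 1116 reads). Its groups did not overlap (-0.45 ± 0.13, limma, adjusted p = 0.659), and the call was lost without control 2 (-0.39) and without cKO 1 (-0.34). Ube3a had a difference of -0.36 (means of 8.17 and 6.16 FPKM), at an unadjusted limma p of 0.0331.

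Libraries numbered 2 of the Rnf2 table differed from those numbered 1 in both groups for some of these genes. H19 was 5.71 and 13 FPKM in controls and 5.71 and 13.7 FPKM in cKO, and Mest was 14.3 and 24.4 FPKM in controls and 13.7 and 20.3 FPKM in cKO. The spread within each group exceeded the difference between groups for both. Cdkn1c and Grb10 were also higher in the libraries numbered 2 of both groups. Meninges markers moved in the opposite direction to cortices, with 5 of 8 called lower in Rnf2 cKO (41.9 to 42.9 and 22.2 to 31.4 FPKM), and Igf2 was 0.677 and 0.887 FPKM in controls and 0.434 and 0.40 FPKM in cKO (-0.33, not passed). Choroid plexus markers summed to 51.7 and 13.4 FPKM in controls and to 245 and 8.96 FPKM in cKO, with cKO 1 far above the others. The genes called in Kdm2b hippocampi had Rnf2 estimates of 0.40 for Cdkn1c, 0.24 for Grb10, 0.13 for Zdbf2, -0.22 for Kcnk9 and -0.17 for Zim1, of which none passed.

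Within the 40 genes, calls by cluster mostly fell on single genes. Clusters with a single member here (Nap1l5, Plagl1, Impact, Zrsr1, Gnas and Zdbf2) could show no second call. In neurospheres, Peg12 and Atp10a of the other list were called higher as was Ndn, and Pon2 lower as was Sgce, in the same regions. The 40 genes were called 18 times over 16 genes in the 4 comparisons. Among them, H19 with Igf2 in cortices was the only case of 2 genes of a cluster called in the same comparison. There Igf2 passed the filter only through its cKO libraries, so it had to differ to be tested. The 24 genes called in no comparison were Airn, Asb4, Ascl2, Copg2, Ddc, Dlk1, Igf2r, Kcnq1ot1, Magel2, Meg3, Mirg, Mkrn3, Nap1l5, Nnat, Peg10, Peg13, Peg3, Phlda2, Rtl1, Slc22a3, Snrpn, Trappc9, Ube3a and Usp29. Neighbors that share sequence cannot be told apart fully, because the strand setting of counting is not given in the sources used here. The pairs that overlap on opposite strands are Igf2r and Airn (28354 bases), Mest and Copg2 (912 bases) and Nnat and Blcap (2445 bases), and Peg13 overlaps Trappc9 on the same strand (4725 bases).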

How the data were processed

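The authors deposited 1 FPKM table per comparison. For hippocampi and neurospheres they trimmed reads with cutadapt, aligned them to mm10 with STAR and estimated FPKM with Cufflinks (version 2.2.1 in the submitters' processing notes). How the deposited cortical and Rnf2 FPKM were made is not given in the sources used here, but each value times gene length is a whole multiple of 1 step per library (100% of values of 1 to 1000 reads, within 0.05 of a read), which gave the reads.

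Values were taken to log2(FPKM + 1) with a pseudocount of 1. Where the mean over a comparison reached 0.5 FPKM, genes entered the limma fit (3.58.1, R 4.3.3, eBayes with a trend), and differences between comparisons with an interaction fit. The procedure was tested on simulated data. The imprinted genes, the lists of 40 other imprinted genes and 30 imprint regulators, and the markers were chosen with earlier results of these data known. Values per library are given for genes called in at least 1 comparison. List genes are named where called. Genes named outside this rule were chosen after their values were seen. Alternatives were another pseudocount, other filters, scalings and error models, a replicate block, limma-voom on reads, summed entries, adjusted p, no size threshold and each library left out. The limma intervals cover the spread between libraries. Positions are those of the cortical table (GRCm38), and 39 of 40 equal GENCODE M21.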

Additional observations from a re-analysis of the deposited data

Results flagged for a closer look

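The cKO effects of some genes differed between comparisons by a test of the difference itself, in an interaction fit over both tables, at an adjusted p under 0.05 and over 0.4 in size. Differences below are the hippocampal Kdm2b cKO effect minus the effect in the other table, on the log2(FPKM + 1) scale, and tables were normalized separately.

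Against neurospheres, 7 of 26 imprinted genes passed the adjusted p, beside 26.9% of all 11075 genes. Cdkn1c differed by 2.03 ± 0.22, being higher in cKO in 3 of 3 hippocampi and lower in 2 of 2 neurosphere cultures (limma, adjusted p = 0.000125). Ndn differed by -1.29 ± 0.30 (limma, adjusted p = 0.00923), Rian by -1.06 ± 0.21 (limma, adjusted p = 0.00382) and Mest by -1.0 ± 0.13 (limma, adjusted p = 0.000387). Mest had positive estimates in both tables, 0.37 in hippocampi and 1.37 in neurospheres. Sgce differed by 0.60 ± 0.11 (limma, adjusted p = 0.00285) and Blcap by 0.43 ± 0.09 (limma, adjusted p = 0.00435). Impact passed as well but differed by less (0.36).

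Against cortices, 2 of 33 passed, beside 1.62% of all 10711 genes. H19 differed by -2.09 ± 0.27 (limma, adjusted p = 0.00245) and Igf2 by -1.05 ± 0.21 (limma, adjusted p = 0.0279), but Igf2 passed the cortical filter only through its cKO libraries, so it had to differ to be tested and its p supports nothing further. The meninges markers, which were higher in cKO cortices, were not so in cKO hippocampi, and their part in this difference was not tested. Igf2 levels also differ widely between tables, at 34.4 FPKM in control Kdm2b hippocampi and 0.782 FPKM in control Rnf2 hippocampi. Against Rnf2 cKO hippocampi, 1 of 32 passed, beside 0.683% of all 11268 genes, and this was Gnas, at -0.91 ± 0.12 (limma, adjusted p = 0.00882), a locus whose level differs widely between the tables.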

How the results depend on the processing

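The 18 calls of imprinted genes gave 273 values under the alternatives. Of these, 251 stayed past the threshold in the same direction, 22 kept the direction but not the call, and 0 reversed, and 7 calls held under each alternative run. Part of this tally was fixed in advance. Without a size threshold each call stays by construction, and neither that setting nor adjusted p can reverse a sign. Summed entries repeat the estimate of a gene with a single entry. The tally also holds the crossed replicate numbers of neurospheres, which were chosen after seeing the data. The counts of imprinted genes moved as follows. In Kdm2b hippocampi, 3 higher and 2 lower became 2 to 5 higher and 2 to 3 lower with single libraries left out, and 5 were lower (with Nap1l5, Rian and Snrpn) without a size threshold. In neurospheres, 3 higher and 5 lower became 2 to 5 and 3 to 5 with single libraries left out, and 1 was lower at the same FPKM total. In cortices, 3 higher and 0 lower became 2 to 4 and 0 to 2, with Gnas and Kcnk9 lower without control 2, while adjusted p left 1 higher and limma-voom found 2 lower. In Rnf2 hippocampi, 1 higher and 1 lower became 1 to 2 and 0 to 2, adjusted p left 0 and 0, limma-voom found 3 lower (with Igf2 and Ube3a), and 2 were lower without a size threshold. Without control 1 of Rnf2, Ndn was also higher and Ube3a lower. With groups of 2, leaving 1 out assumes that the lone library varies like the other group. Kcnk9 in cortices and Igf2 in Rnf2 hippocampi passed the filter only through their controls.

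Differences from neurospheres fell from 7 to 4 genes at the same FPKM total (Cdkn1c, Mest, Ndn and Rian). Replicate numbers were not taken as pairs, since the study names no pairing of libraries. Deviations of libraries that share a number correlated at 0.0491, -0.103 and -0.0858 in hippocampi, -0.277 in neurospheres, -0.0528 in cortices and 0.161 in Rnf2 hippocampi. With groups of 2, the other pairing gives the same value with the sign reversed, so these values cannot settle pairing. The Rnf2 value was positive, and some genes there differed by number in both groups. The replicate block left 3 higher and 2 lower in hippocampi, 3 and 5 in neurospheres, 3 and 0 in cortices and 1 and 1 in Rnf2 hippocampi, and took the differences from cortices from 2 to 1 gene, H19. With the numbers crossed in neurospheres, chosen after seeing the data, counts were 3 and 5.

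All-gene counts went from 523 higher and 303 lower to 1537 and 1553 without a size threshold in hippocampi (198 lower by adjusted p), and from 1392 and 1620 to 2230 and 2439 in neurospheres, with 826 lower at the same FPKM total. In cortices 742 and 358 became 1212 and 801 without a size threshold, 58 and 9 by adjusted p, and up to 1226 higher without control 1. In Rnf2 hippocampi 451 and 291 became 808 and 772 without control 2, 278 and 190 without cKO 2, 191 lower without cKO 1, 437 lower with the replicate block, 692 higher without a size threshold, and 0 and 0 by adjusted p. The cause of these shifts was not tested. Reads of each library could not be taken from the hippocampal and neurosphere FPKM, and Igf2 in cortices rests on 14 to 161 reads.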

Other observations

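Other imprinted genes called in neurospheres were Atp10a, a phospholipid flippase gene beside the Snrpn cluster, whose control level was 1.28 ± 0.203 FPKM and whose cKO level was 3.32 ± 0.281 FPKM (0.92, limma, adjusted p = 0.0105), Pon2, a paraoxonase gene next to the Peg10 cluster, at 14.1 ± 2.17 and 9.19 ± 0.252 FPKM (-0.56, limma, adjusted p = 0.0268), and Th, the dopamine synthesis gene near Igf2, at 1.14 ± 0.0600 and 0.289 ± 0.0480 FPKM (-0.73, limma, adjusted p = 0.0368), which passed the filter only through its controls and had to differ to be tested. They were 3 of 4 called among 21 tested (19%, beside 24.6% of all genes), Peg12 being the fourth, and Pon2 was not called at the same FPKM total (-0.45). In Rnf2 hippocampi 2 of 25 were called (8%, beside 4.71% of all genes). Tssc4, a splicing factor gene of the Kcnq1ot1 domain, was 9.58 ± 0.539 and 13.9 ± 1.76 FPKM (0.49, limma, adjusted p = 0.643), and Htr2a, a serotonin receptor, was 1.04 ± 0.293 and 0.371 ± 0.0408 FPKM (-0.57, limma, adjusted p = 0.690), passing the filter only through its controls. Tssc4 lost its call without control 1 (0.44) or cKO 1 (0.37), and Htr2a without control 1 (-0.42), cKO 1 (-0.60) or cKO 2 (-0.54).

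Further markers were measured. Of 6 markers of ganglionic eminence and interneurons, limma called 0 in Kdm2b hippocampi (1 at an unadjusted p under 0.05). In neurospheres 3 were tested and 2 called higher (Dlx1 and Dlx2, which passed the filter only through cKO libraries). Of the same 6 markers limma called 0 in cortices (0 at an unadjusted p under 0.05) and 1 higher in Rnf2 hippocampi. Of 5 thalamus markers 3 were tested in Kdm2b hippocampi and 2 called higher, 1 of them by adjusted p as well. These shifts and the imprinted genes were not tested against each other.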
